A study of Mus musculus with 12 samples.

Results

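The H3K4me3 and H3K27ac landscapes of cKit+ mouse bone marrow cells were set side by side over all 4 libraries of each mark, with the genotypes pooled. The members are the 4 H3K4me3 and the 4 H3K27ac libraries, 8 of the 12 libraries of the series. Within each mark, overlapping peaks were merged into regions, and a region with a peak in all 4 libraries is called constant here. That left 24578 constant H3K4me3 regions of 44957 merged ones (54.7%) and 19612 constant H3K27ac regions of 48376 (40.5%).

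The cells were cKit+ bone marrow cells of C57BL/6 mice, sorted by flow cytometry, a mixture of blood stem and progenitor cells. Each mark had 2 libraries labelled wild type (WT) and 2 labelled Phf6R274X Tg (Tg), a transgenic line that carries Phf6 with the change R274X, which replaces a codon by a stop; the promoter that drives it, the age of the mice and any pooling of animals are not given in the sources used here. Chromatin was precipitated with a kit for small cell numbers. The question put here is where the 2 marks lie relative to each other, not what the genotype does.

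H3K4me3, trimethylation of lysine 4 of histone H3, is laid down by COMPASS-type methyltransferases such as Kmt2a and Setd1a, and is read by factors with PHD fingers. It sits on the nucleosomes around transcription start sites, above all where CpG dinucleotides are dense, and can be present at promoters that are silent but held ready, as at developmental genes under Polycomb control. H3K27ac, acetylation of lysine 27 of histone H3, is written by the acetyltransferases Ep300 and Crebbp, is read by bromodomain proteins, and marks active promoters and active enhancers. Acetylation and Polycomb methylation of lysine 27 exclude each other on the same residue.

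The lists held 34920 to 39584 peaks for H3K4me3 and 31257 to 42124 for H3K27ac. They hold no read counts, so the depth is unknown, and no interval that needs depth was computed. In all 4 H3K4me3 lists the peak names carry the opposite genotype to the label, and in the H3K27ac lists the names match it; the pooled comparison does not use the genotype. Peaks at Xist, the RNA of the inactive X of females, were present in all 4 H3K27ac libraries and in 2 of the 4 H3K4me3 libraries. The other 2 H3K4me3 libraries, replicate 1 of either label, had peaks at all 4 Y-linked genes examined, so the animals behind the marks were not all of the same sex. Without chromosomes X and Y the counts of constant regions were 23933 and 19138. Nothing in the labels ties a library of a mark to the same animal as a library of the other, and p-values measure the spread between these samples, which may be technical in part. Mark, antibody and the animals used for each cannot be told apart.

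Promoters of genes from the classes with both marks or with a single mark are shown first, because base composition is one of the properties that separated the classes. Each is the 300 bases of a RefSeq promoter (GRCm38.p6, the assembly called mm10), from 250 before to 50 after the start, read 5′ to 3′ on the strand of the gene, with every CG dinucleotide in capitals. Srsf5, a splicing factor (chr12:80945249-80945548, plus strand), and Cltc, the clathrin heavy chain (chr11:86757518-86757817, minus strand), were among the strongest genes with both marks. Gata2, a transcription factor of blood stem cells (chr6:88193641-88193940, plus strand), and Gbx2, a homeobox factor of brain patterning (chr1:89931127-89931426, minus strand), had H3K4me3 only; these were added after their values were seen. F7, coagulation factor VII (chr8:13025784-13026083, plus strand), and Acod1, which makes itaconate in activated myeloid cells (chr14:103046762-103047061, plus strand), had H3K27ac only.
Srsf5: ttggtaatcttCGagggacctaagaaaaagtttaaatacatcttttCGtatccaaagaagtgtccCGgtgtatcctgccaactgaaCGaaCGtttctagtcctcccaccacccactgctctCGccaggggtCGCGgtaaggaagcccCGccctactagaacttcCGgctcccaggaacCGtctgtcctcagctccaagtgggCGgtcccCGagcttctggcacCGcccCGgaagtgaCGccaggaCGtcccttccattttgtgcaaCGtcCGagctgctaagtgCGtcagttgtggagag
Cltc: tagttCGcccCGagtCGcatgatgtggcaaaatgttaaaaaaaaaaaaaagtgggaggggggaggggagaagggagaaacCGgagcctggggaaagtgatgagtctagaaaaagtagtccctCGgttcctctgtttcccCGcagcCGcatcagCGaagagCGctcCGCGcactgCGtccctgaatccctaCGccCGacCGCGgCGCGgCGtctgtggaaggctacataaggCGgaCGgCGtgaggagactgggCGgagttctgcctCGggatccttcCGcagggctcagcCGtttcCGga
Gata2: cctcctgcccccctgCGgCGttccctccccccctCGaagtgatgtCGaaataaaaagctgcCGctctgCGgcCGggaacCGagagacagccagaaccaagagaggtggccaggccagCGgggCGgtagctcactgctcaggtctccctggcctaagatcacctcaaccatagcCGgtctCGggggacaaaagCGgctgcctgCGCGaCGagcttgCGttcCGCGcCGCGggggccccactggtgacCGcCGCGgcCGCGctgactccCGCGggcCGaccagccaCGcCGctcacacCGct
Gbx2: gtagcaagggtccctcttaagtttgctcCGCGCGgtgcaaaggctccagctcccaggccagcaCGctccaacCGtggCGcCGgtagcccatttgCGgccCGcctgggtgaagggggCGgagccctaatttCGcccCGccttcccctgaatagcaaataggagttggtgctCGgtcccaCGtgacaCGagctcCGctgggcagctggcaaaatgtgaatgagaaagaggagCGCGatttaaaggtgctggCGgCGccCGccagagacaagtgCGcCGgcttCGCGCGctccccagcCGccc
F7: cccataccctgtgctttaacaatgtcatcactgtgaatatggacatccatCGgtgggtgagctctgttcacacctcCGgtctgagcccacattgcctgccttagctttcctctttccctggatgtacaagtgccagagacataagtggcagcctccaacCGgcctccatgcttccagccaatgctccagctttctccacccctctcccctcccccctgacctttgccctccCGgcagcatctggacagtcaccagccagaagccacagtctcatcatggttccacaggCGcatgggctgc
Acod1: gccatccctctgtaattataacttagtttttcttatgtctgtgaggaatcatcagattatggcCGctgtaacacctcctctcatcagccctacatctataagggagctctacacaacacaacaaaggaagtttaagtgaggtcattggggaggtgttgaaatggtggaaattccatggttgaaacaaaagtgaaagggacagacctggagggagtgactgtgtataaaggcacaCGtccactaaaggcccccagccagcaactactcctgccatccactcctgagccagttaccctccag

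The promoters of Srsf5, Cltc, Gata2 and Gbx2 held 20, 27, 32 and 27 CG dinucleotides, and those of F7 and Acod1 held 5 and 2. The ratio of observed to expected CG, which corrects for base composition, was 0.860, 1.03, 0.900 and 0.861 at the first 4 and 0.225 and 0.121 at F7 and Acod1. Mmp11 and Pigz, the genes with H3K4me3 only that were chosen by strength, are not printed. Their promoters held 19 and 15 CG dinucleotides, with lower ratios of 0.573 and 0.731. The promoter of Srsf5 holds the motif CCGGAAG, bound by ETS-family factors, and that of Acod1 holds TATAAA, the TATA box. The promoters of Srsf5, Gata2, Gbx2 and Cltc hold GGGCGG, bound by Sp1-type factors, on either strand. Those of Gata2, Gbx2 and Cltc hold neither of the other motifs.

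The libraries of a mark resembled each other more than libraries of different marks. The Jaccard index, the share of the bases under either list that lie under both, was 0.742 to 0.793 for pairs of H3K4me3 libraries, 0.514 to 0.675 for pairs of H3K27ac libraries and 0.361 to 0.450 for pairs of different marks. The mean was 0.684 over the 12 pairs within marks and 0.404 over the 16 pairs between them, a difference of 0.280 (two-sided exact permutation test over the libraries, p = 0.0286, 4 against 4; adjusted p = 0.0393 over 11 measures). With 4 against 4 libraries 0.0286 is the smallest p that can be reached. The 3 ranges did not overlap, and H3K27ac libraries were the less alike among themselves.

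Peak number did not separate the marks. H3K4me3 had 37082 ± 1924 and H3K27ac 36350 ± 5018 peaks (mean ± SD, n = 4 each here and below; exact permutation p = 0.800). Median peak width was 669 ± 50.4 bp against 684 ± 129 bp, with an exact permutation p = 0.83, and the covered length was 40.7 ± 2.22 Mb against 36.2 ± 7.20 Mb, with an exact permutation p = 0.314 (adjusted 0.384). In each of these the libraries of the marks overlapped, and with the spread among the H3K27ac libraries a difference may have gone unseen.

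Placement did separate them. H3K4me3 lay nearer to genes: 34.6%, 37.2%, 36.7% and 36.8% of the peaks of its libraries lay no more than 1 kb from an end of a protein-coding gene, against 25.5%, 31.8%, 32.5% and 28.7% for H3K27ac. The means were 36.3% ± 1.19 and 29.6% ± 3.23 (exact permutation p = 0.0286, adjusted 0.0393). Among the highest 10% of each list by −log10 q, the peak caller's value for its own confidence, the share was 91.6% ± 0.0814 for H3K4me3 and 79.2% ± 2.73 for H3K27ac. The median distance of a peak from the nearest gene end was 3924 ± 483 bp against 7622 ± 1339 bp. A peak of H3K4me3 lay near an end of 13439 ± 255 genes and one of H3K27ac near an end of 10266 ± 323, a difference of 3173 genes. None of these measures overlapped between the marks, and each had p = 0.0286 by the exact permutation test and an adjusted p of 0.0393.

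The widest peaks differed too, though less firmly. The 95th percentile of width was 3325, 3095, 3414 and 3242 bp in the H3K4me3 libraries and 3007, 3059, 2299 and 2364 bp in those of H3K27ac, with means of 3269 ± 136 and 2682 ± 406 bp (exact permutation p = 0.0286, adjusted 0.0393). The H3K27ac libraries labelled WT came close to those of H3K4me3. With peaks up to 500 bp apart joined, the difference was 378 bp and did not pass the test (exact permutation p = 0.200).

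H3K4me1, the monomethyl mark of enhancers, covered more of the H3K27ac landscape. Constant regions of H3K4me1 held 54.7%, 53.5%, 56.5% and 53.8% of the length under H3K4me3 peaks and 67.3%, 64.3%, 61.3% and 62.7% of that under H3K27ac peaks. The means, 54.6% ± 1.35 and 63.9% ± 2.55, did not overlap (exact permutation p = 0.0286, adjusted 0.0393).

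**Figure D1:**
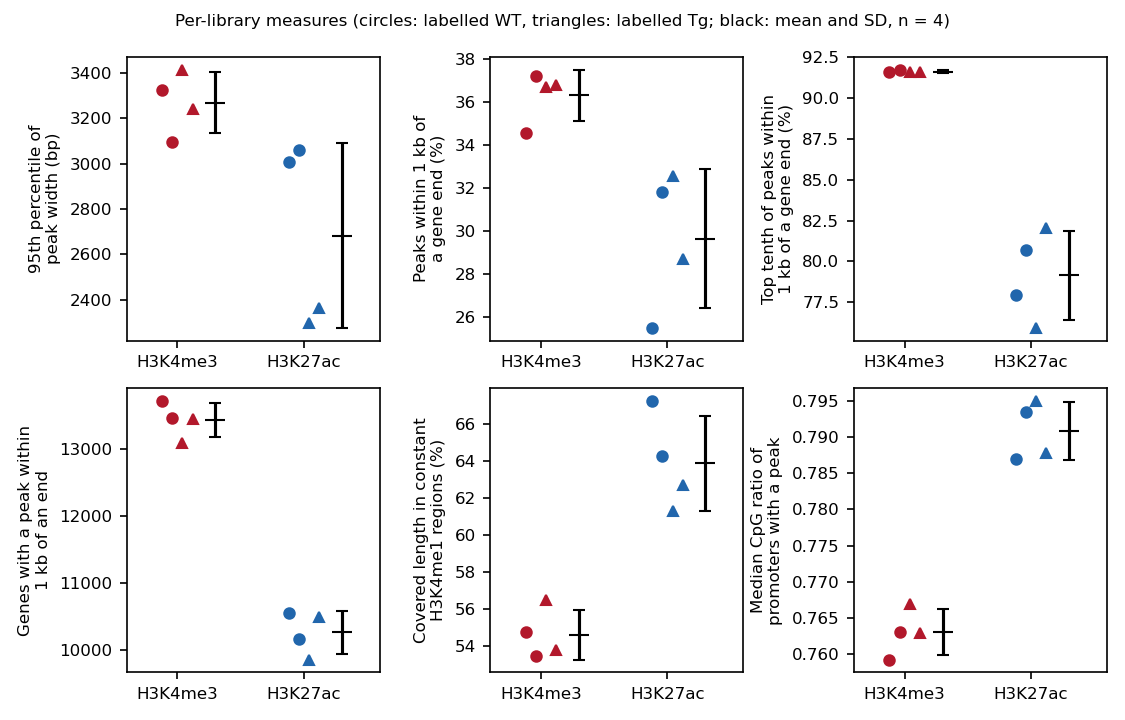
Values of each library for 6 measures (vertical axes, units on each), with H3K4me3 left and H3K27ac right, circles for libraries labelled WT, triangles for those labelled Tg, and black bars for the mean and SD of 4 libraries. In every panel the 4 H3K4me3 libraries lie apart from the 4 H3K27ac libraries; axes do not start at 0.

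Constant regions of the 2 marks shared 25.6 Mb. That was 57.9% of the 44.2 Mb under constant H3K4me3 and 65.5% of the 39.0 Mb under constant H3K27ac, a Jaccard index of 0.444. In single libraries, 59.8% ± 2.45 of the H3K4me3 length (56.6% to 62.4%) lay under constant H3K27ac and 64.2% ± 5.23 of the H3K27ac length (56.8% to 67.9%) under constant H3K4me3.

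The sharing was not even-handed. Of the constant H3K4me3 regions, 14926 (60.7%) overlapped a constant H3K27ac region, 4067 (16.5%) met H3K27ac in some libraries only, and 5585 (22.7%) met no H3K27ac peak in any library. Of the constant H3K27ac regions, 14876 (75.9%) overlapped constant H3K4me3, 2667 (13.6%) met it in some libraries, and 2069 (10.5%) met none.

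What was left over differed in kind between the marks. H3K4me3 regions without H3K27ac were narrow, with a median width of 917 bp against 1979.5 bp for those that shared, and 44.4% of them lay near a gene end, against 55.9%. Only 39.8% of them carried constant H3K4me1, against 87.8% of the shared ones. H3K27ac regions without H3K4me3 had a median width of 1352 bp, and 4.69% of them lay near a gene end, against 56.6% of those that shared. Their median distance from a gene end was 21314 bp. Constant H3K4me1 was carried by 83.2% of them, close to the 86.5% of those that shared.

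Near gene ends H3K27ac was rarely alone. Of 8659 constant H3K27ac regions within 1 kb of a gene end, 97.2% overlapped constant H3K4me3 and 1.12% met no H3K4me3 in any library. Of 11966 constant H3K4me3 regions there, 69.7% overlapped constant H3K27ac and 20.7% met none. Farther away, 59.0% of 10953 H3K27ac regions and 52.2% of 12612 H3K4me3 regions overlapped the other mark. These are counts of regions within the same 8 libraries and carry no test of their own.

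The regions of highest rank were the shared ones. Each region was given the mean over 4 libraries of the percentile of its strongest peak by −log10 q within its list, and the regions of a mark were cut into 10 equal groups. In the 6 lowest groups 37.3% to 44.1% of H3K4me3 regions overlapped constant H3K27ac, with no steady rise. The share was 71.7% in the next group and 92.7%, 98.8% and 99.6% in the top 3. H3K27ac rose evenly, from 37.0% in the lowest group through 75.4% in the fifth to 99.7% in the highest. H3K4me3 regions with no H3K27ac at all were most frequent in the middle, 42.1% in the fifth group against 30.1% in the lowest and 0% in the top 2. In the top 2 groups of 2458 H3K4me3 regions each there was thus no region without an H3K27ac peak in at least 1 library.

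The share near gene ends climbed along the same scale, from 9.65% to 92.4% of H3K4me3 regions and from 11.01% to 83.8% of H3K27ac regions. Median width grew from 652 to 2977 bp for H3K4me3 and from 1001 to 2584 bp for H3K27ac. Rank, width and nearness to a gene end moved together here, and their separate parts were not tested.

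**Figure D2:**
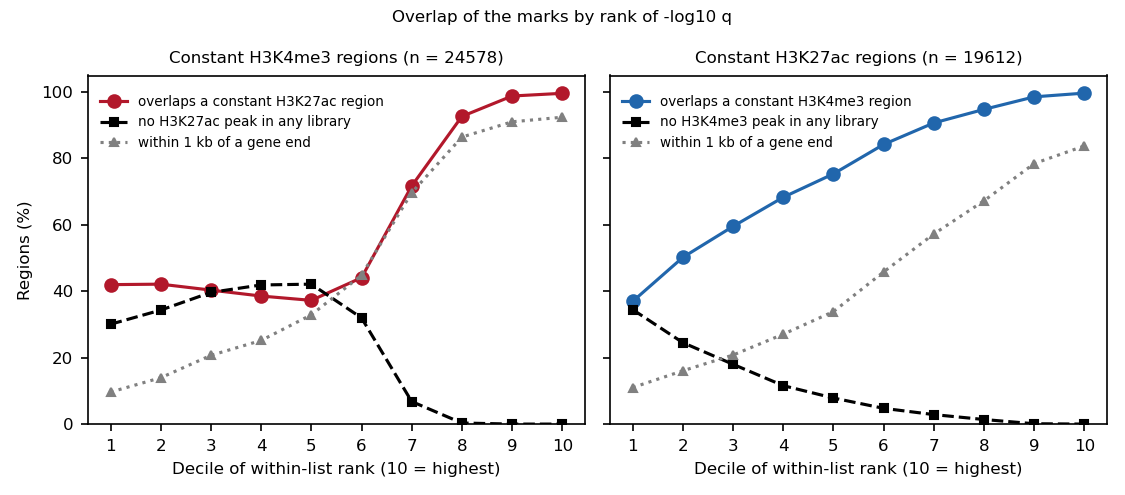
Share of constant regions (vertical axis, %) by group of within-list rank (horizontal axis, 10 = highest) for H3K4me3 (left) and H3K27ac (right): overlap with the other constant mark (coloured), no peak of the other mark in any library (black dashed) and position near a gene end (grey). For H3K4me3 the overlap stays between 37.3% and 44.1% over 6 groups and then climbs to 99.6%, and for H3K27ac it rises from 37.0% to 99.7%.

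Where a constant region of a mark overlapped exactly 1 of the other, which gave 13656 pairs, H3K4me3 was the wider in most. Over all constant regions the order was the reverse, with median widths of 1453.5 bp for H3K4me3 and 1697 bp for H3K27ac. In the pairs the median widths were 1988 bp for H3K4me3 and 1756 bp for H3K27ac. H3K4me3 reached past H3K27ac on both sides in 6725 pairs (49.2%), and H3K27ac past H3K4me3 on both sides in 3354 (24.6%). H3K27ac was the wider in 34.8%. Across these pairs Spearman's rho was 0.641 between the ranks and 0.538 between the widths, a description across regions of the same libraries, since regions are not replicates.

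Around transcription start sites the difference in width lay mostly downstream. At 9363 starts with both marks within 1 kb in every library, H3K4me3 peaks covered the start itself in 98.2% ± 0.402 and H3K27ac peaks in 89.7% ± 6.93 (SD, n = 4). At 1 kb downstream, inside the gene, the shares were 75.7%, 78.2%, 78.9% and 82.3% for H3K4me3 and 31.8%, 39.2%, 42.1% and 48.2% for H3K27ac, with means of 78.8% ± 2.69 and 40.3% ± 6.85. At 1 kb upstream they were 39.5% ± 2.04 and 27.5% ± 4.15. At 2 kb downstream they were 26.0% ± 1.54 and 10.9% ± 2.57.

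The libraries of the marks did not overlap at the start, where the lowest H3K4me3 value was 97.7% and the highest H3K27ac value 94.7%, nor at any of the other 3 positions. The stretch over which coverage exceeded 50% of its maximum was 2150 ± 57.7 bp for H3K4me3 and 1500 ± 115 bp for H3K27ac. Both marks were highest 100 to 200 bp downstream of the start. H3K27ac libraries dipped at the start itself to different degrees, most in Tg replicate 1, where 79.5% of starts were covered against 91.6% to 94.7% in the other 3; peak width in a library and the depth behind it cannot be told apart here.

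**Figure D3:**
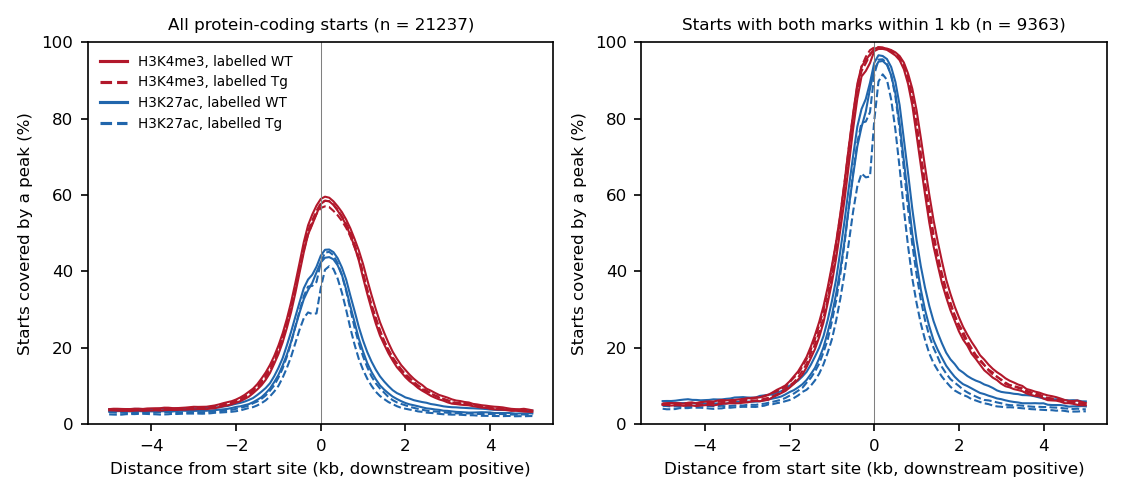
Share of protein-coding start sites covered by a peak (vertical axis, %) against the distance from the start (horizontal axis, kb, downstream positive) for all starts (left) and starts with both marks (right), 1 line per library, red for H3K4me3, blue for H3K27ac, dashed for libraries labelled Tg. At the start and 1 kb to either side the H3K4me3 lines lie above the H3K27ac lines. They extend farther downstream, at 78.8% against 40.3% on average at 1 kb in the right panel. Farther out the marks are not apart. At 5 kb upstream of starts with both marks H3K27ac WT replicate 1 is at 6.02%, against 5.03% to 5.41% for H3K4me3.

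By gene, H3K27ac near a gene end was almost wholly a subset of H3K4me3. Of 21883 protein-coding genes, 9387 (42.9%) had both marks within 1 kb of either end in all 8 libraries. H3K4me3 in all 4 libraries with H3K27ac in none was found at 2282 genes (10.4%), and the reverse at 34 (0.155%). The last count rose to 59 without H3K27ac Tg replicate 1 and was 12 to 123 under other settings. Neither mark was found at 7695 (35.2%), and the remaining genes had a mark in 1 to 3 of its libraries. Put as shares, 73.0% of the 12863 genes with constant H3K4me3 also had constant H3K27ac, and 99.1% of the 9468 genes with constant H3K27ac also had constant H3K4me3.

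H3K4me1 was more frequent at genes with H3K27ac. It was present near an end in all 4 of its libraries at 43.4% of all genes. The share was 76.3% at genes with both marks and 76.5% at the 34 with H3K27ac only. It was 40.8% at genes with H3K4me3 only, near that of all genes, and 2.48% at those with neither. The H3K4me3 of the genes that lacked H3K27ac was also weaker and narrower. The smallest of their 4 percentiles had a median of 53.5, against 84.9 at genes with both marks, and the median covered length within the windows was 912 bp against 1736 bp. Of these 2282 genes 1596 (69.9%) had at least 500 bp of H3K4me3 near their ends in each library. H3K27ac was absent within 10 kb of both ends in every library at 1470 (64.4%), and absent from the whole gene and 1 kb around it at 1705 (74.7%).

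The strongest genes with H3K4me3 only were Mmp11, Eif4g3, Pcp2, Plxdc1, Lcat, Rbm48, Btbd18, Pigz, Cand2 and Gm38523. At 6 of them, Eif4g3, Pcp2, Lcat, Rbm48, Btbd18 and Pigz, the window held only the edge of a strong peak, 17 to 296 bp, and the peak lay mostly outside it. At the other 4 the window held more, 364 to 2280 bp. Plxdc1, a membrane protein of tumour endothelium (chromosome 11, 97923237 to 97986669), had 2001, 1825, 1800 and 2001 bp of H3K4me3 near its ends. Cand2, a regulator of cullin ubiquitin ligases (chromosome 6, 115774557 to 115805555), had 2280, 1671, 1795 and 1914 bp, and Mmp11, a secreted metalloprotease (chromosome 10, 75923221 to 75932502), had 939, 779, 698 and 695 bp. Within these windows H3K27ac was at 0 bp in each of the 4 libraries at all of them. Rank groups 9 and 10 start at a mean percentile of 87.1, and there 0% of constant H3K4me3 regions met no H3K27ac peak in any library. The smallest percentile at these genes was 89.2. A region that holds such a peak in all 4 libraries therefore met H3K27ac in at least 1 library, outside the window. The class of such a gene rests on the 1 kb window and does not show that the region lacks H3K27ac.

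The 34 genes with H3K27ac only were weak by comparison. Their smallest percentile had a median of 28.4, and 10 of them had at least 500 bp of H3K27ac in each library. F7 (chromosome 8, 13025506 to 13035809) led with 2282, 1739, 1756 and 1169 bp of H3K27ac and 0 bp of H3K4me3 near its ends in every library. Acod1 (chromosome 14, 103047012 to 103056573) had 2618, 2590, 2229 and 1038 bp of H3K27ac. Tnfrsf8, which encodes the receptor CD30, had 1228, 1222, 1784 and 1461 bp, and Bcl2a1a, a survival gene of the Bcl2 family with near-identical copies, 1088, 1193, 1253 and 1022 bp. Serpinb2, an inhibitor of plasminogen activators, had 855, 752, 424 and 584 bp. At Gm7972 only 10 to 222 bp of a peak's edge lay in the window, and at Stim1, the calcium sensor of the endoplasmic reticulum, 86 to 456 bp. Gm39701, Tprg and Pan3 complete the 10 strongest. H3K4me3 within 10 kb was present in all 4 libraries at 17 of the 34, so the mark was often close by though not at the gene's ends.

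The strongest genes with both marks were Clk1, Cltc, Ddx6, Srsf5, Vamp2 and Fbxw2, with every one of their 8 percentiles at 99.4 or above. They encode a kinase of splicing factors, clathrin, an RNA helicase of P-bodies, a splicing factor, a vesicle fusion protein and a ubiquitin ligase subunit, all broadly expressed. At Cltc each H3K4me3 library covered 2001 bp near the ends, and H3K27ac covered 2001 to 2079 bp. At Clk1 H3K4me3 covered 1289 to 1453 bp and H3K27ac 1422 to 1485 bp.

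Phf6 itself, the X-linked gene behind the transgene (chromosome X, 52912214 to 52956961), had both marks. Its H3K4me3 near the ends covered 1530, 1510, 1545 and 1528 bp and its H3K27ac 1399, 1362, 1367 and 1422 bp. No library of a mark reached into the range of the other. Within 10 kb of its ends H3K4me3 covered 2406 to 3313 bp and H3K27ac 1988 to 2210 bp, a log2 difference of 0.32 ± 0.10 (SE, limma adjusted p = 0.0161) that was -0.22 after quantile normalization. A peak call does not tell the endogenous gene from a transgene.

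Base composition separated the classes. A RefSeq promoter was matched for 17491 of the 21883 genes, 21262 promoters in all. The median ratio of observed to expected CG was 0.802 at promoters with both marks within 1 kb of the start (n = 9379), 0.687 with H3K4me3 only (n = 2193), 0.200 with H3K27ac only (n = 17), 0.187 with neither (n = 7403) and 0.567 over all. A ratio over 0.6 was found at 78.5%, 62.2%, 0%, 5.66% and 47.6% of them. Library by library, the median ratio of promoters with a peak was 0.759, 0.763, 0.767 and 0.763 for H3K4me3 and 0.787, 0.793, 0.795 and 0.788 for H3K27ac (exact permutation p = 0.0286, adjusted 0.0393). H3K27ac promoters were thus the more CG-rich in every library, and the means, 0.763 ± 0.00314 and 0.791 ± 0.00400, lay farther apart than the spread within a mark.

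Motif content differed as well. CCGGAAG, searched on both strands, was present in 22.0% of promoters with both marks, in 4.29% of those with H3K4me3 only, in 2.13% of those with neither and in 11.6% of all. The gap was there at like CG content: between ratios of 0.6 and 0.8 the motif was found in 22.9% of 2635 promoters with both marks and in 4.02% of 671 with H3K4me3 only, and between 0.8 and 1 in 26.0% of 3281 and 5.20% of 519. GGGCGG did not follow that pattern. It was present in 66.3% of promoters with both marks, 67.9% with H3K4me3 only and 46.2% of all, and between ratios of 0.6 and 0.8 in 70.2% and 77.0%.

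TATAAA was found in 6.16% of promoters with both marks, 8.03% with H3K4me3 only, 23.3% with neither and 12.6% of all, and in 3 of the 17 with H3K27ac only. GAGGAAGT, the site of the myeloid factor Spi1, which has 5 letters (GGAAG) in common with the ETS motif above, was found in 3.42%, 1.78%, 3.20% and 3.13% of these 4 sets. CCAAT was found in 38.2% with both marks, 31.6% with H3K4me3 only and 38.2% of all, AGATAA, bound by relatives of Gata2, in 5.60%, 6.16% and 9.65%, and TGTGGTT, a Runx site, in 3.53%, 2.83% and 4.71%. A match of letters is not a bound site, and these shares carry no test.

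Gene groups differed in class. Several lists had both marks nearly throughout, against 42.9% of all genes. Among them were 75 of 82 cytosolic ribosomal protein genes, 63 of 66 core histone genes and 28 of 32 genes of cell cycle and replication. So were 18 of 20 immediate early genes, 9 of 10 H3K4me3 readers and 18 of 21 interferon response genes. No ribosomal, histone or immediate early gene had H3K4me3 only. Ezh2, Suz12, Eed and Rnf2, core subunits of the Polycomb complexes, had both marks, as did 11 of 13 genes of that group, while Cbx2, a subunit that compacts chromatin, had H3K4me3 only. Of the H3K4 methylation writers 11 of 13 had both marks, led by Kmt2d and Kmt2c, as did Ep300, an H3K27 acetyltransferase.

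Regulators of embryonic development had H3K4me3 without H3K27ac. Of 70 transcription factors of development outside the Hox clusters, 30 had H3K4me3 only (42.9%, against 10.4% of all genes), 0 had both marks and 19 had neither. Gbx2, Foxc1, Gata6 and Dlx1 were the strongest, factors of brain, mesoderm, endoderm and forebrain. Of 20 developmental signalling ligands 9 had H3K4me3 only, among them Wnt6, Bmp2, Fgf8 and Fgf9, and 1, Dhh, had both. Within 10 kb of their ends 64 of the 70 factors had no H3K27ac in any library, and 7 had no H3K4me3. The summed H3K4me3 over the 70 was 58.4 to 106 kb per library and the summed H3K27ac 2.43 to 3.77 kb.

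At Foxc1 H3K4me3 covered 5025, 4182, 3839 and 4447 bp within 10 kb of the ends, and at Gbx2 5998, 4277, 2540 and 4586 bp, with 0 bp of H3K27ac in all 4 libraries at both. Bmp2 had 3002, 2687, 2466 and 2962 bp of H3K4me3 and 0 bp of H3K27ac. H3K4me3 Tg replicate 1 was the lowest library at each of these 3 genes. Polycomb methylation was not measured in these libraries.

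Olfactory receptor, liver, gut and neuronal genes mostly had neither mark. That was so for 1092 of 1106 olfactory receptor genes, 14 of 16 liver and gut genes and 15 of 24 neuronal genes, against 35.2% of all genes. It was not so for stroma and endothelium markers, of which 1 of 7 had neither mark and 4 had H3K4me3 only.

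**Figure D4:**
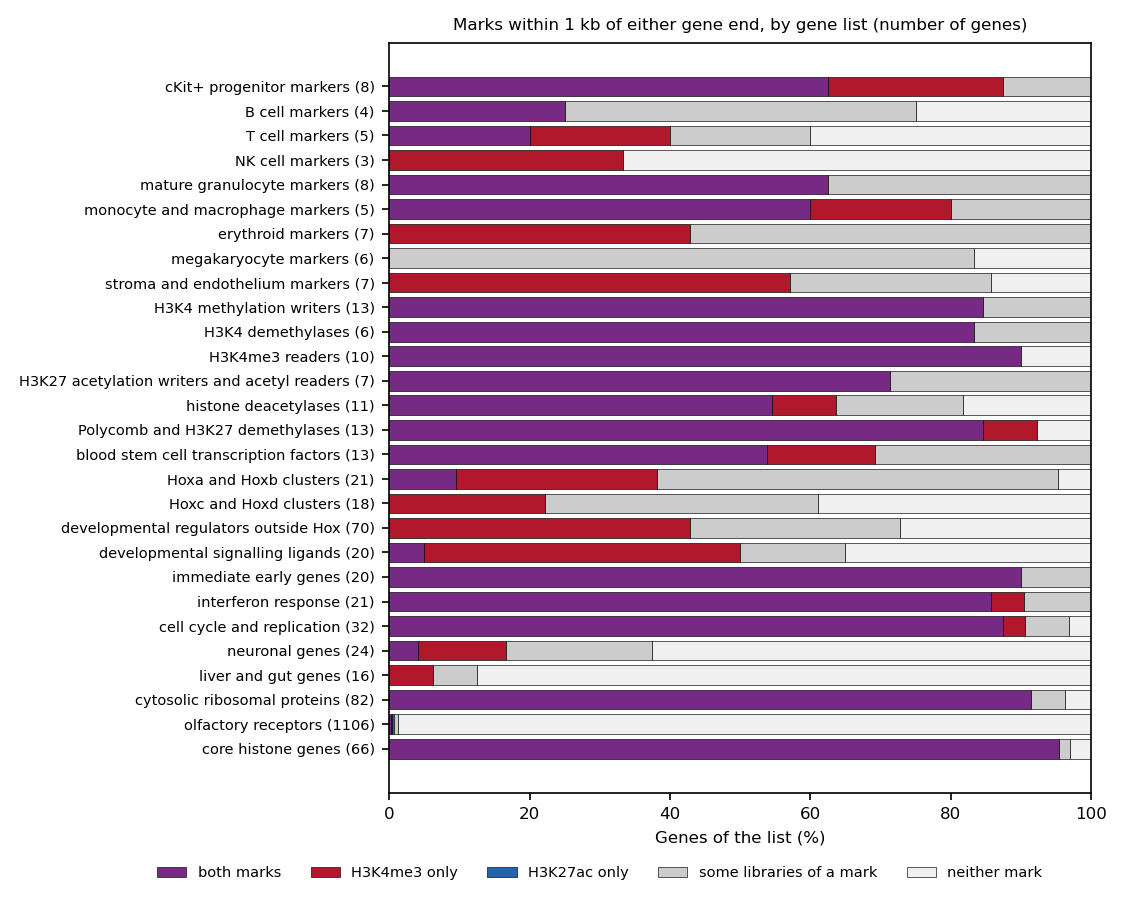
Share of the genes of each list (horizontal axis, %) with both marks, H3K4me3 only, H3K27ac only, a mark in some of its libraries only, or neither, within 1 kb of either gene end, with the number of genes in brackets. Ribosomal, histone and cell cycle genes have both marks, 30 of 70 developmental regulators have H3K4me3 only, and olfactory receptors have neither.

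The length under peaks within 10 kb of either gene end gave a graded comparison. It was fitted in limma on log2(bp + 500) over all 8 libraries, for the 15306 genes where 4 or more of them had a peak in that window, and log2 differences below are H3K4me3 minus H3K27ac on that scale. The median over all genes tested was 0.56, so H3K4me3 covered more of the typical window, and single genes are to be read against that shift. At an adjusted p of 0.05, 10840 genes had more H3K4me3 (70.8%) and 848 more H3K27ac (5.54%). Unadjusted, 11969 passed. A gene could enter the fit on the libraries of 1 mark alone, and its call then follows largely from that filter. At their ends 2184 of the 10840 had H3K4me3 only, and 27 of the 848 had H3K27ac only. The shares of all genes used below include such genes. The split rests on the scale: after quantile normalization, which removes the overall shift, 4154 genes had more H3K4me3 (27.1%) and 4353 more H3K27ac (28.4%). All 848 genes with more H3K27ac were still called so, and 1299 of the genes with more H3K4me3 changed sides.

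The window mattered for the smaller set. With 2.5 kb around the ends 407 genes had more H3K27ac, 280 of them shared with the 848, and 111 of the 848 were then called for more H3K4me3. Of the 848, 468 (55.2%) had both marks at their ends, and 271 (32.0%) differed by more than 1 on the log2 scale. In the H3K4me3 direction, 4067 of 10840 (37.5%) did.

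Several genes of blood stem cells had H3K4me3 with little or no H3K27ac, although 7 of the 13 stem cell transcription factors listed (53.8%) had both marks at their ends, against 42.9% of all genes, and 2, Gata2 and Gfi1b, had H3K4me3 only. Gata2, required for stem cell survival (chromosome 6, 88193891 to 88207032), had 11237, 9721, 7304 and 10288 bp of H3K4me3 and 0, 281, 0 and 420 bp of H3K27ac, a log2 difference of 3.94 ± 0.23 (SE; limma adjusted p = 9.06e-07). The marks lay far apart in every library. Cd34, the stem and progenitor surface marker, had 3305, 1418, 1737 and 1807 bp of H3K4me3 and 0 bp of H3K27ac in all 4 libraries, also across the whole gene and 10 kb around it. Gfi1b, a repressor that drives the erythroid and megakaryocyte lineages, had 4014, 4680, 4042 and 4760 bp against 0, 0, 0 and 320 bp.

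Meis1, the cofactor of Hoxa9 in self-renewal, had 19998, 16128, 12901 and 17961 bp of H3K4me3 and 0, 275, 1292 and 2122 bp of H3K27ac (log2 3.87 ± 0.48, limma adjusted p = 0.000122). Mecom, a stem cell regulator, had 5571, 4953, 3191 and 5406 bp against 0, 0, 572 and 1746 bp. In these windows the 2 H3K27ac libraries labelled Tg were the highest at Meis1, Mecom and Hoxa9. Within labels the Meis1 difference was 4.89 in the libraries labelled WT and 2.86 in those labelled Tg. Across the whole gene and 10 kb around it, H3K27ac covered 1252, 275, 1292 and 2486 bp at Meis1. At Mecom it covered 1267, 953, 1356 and 2056 bp. On that span WT replicate 1 came close to Tg replicate 1 at both genes, so the gap between labels depends on the window. Meis1 and Mecom were singled out after their values were seen.

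Kit, the receptor by which the cells were sorted (chromosome 5, 75574987 to 75656722), had both marks, with 6282, 5427, 4670 and 5300 bp of H3K4me3 and 2826, 1948, 2177 and 2048 bp of H3K27ac (log2 1.11 ± 0.12, limma adjusted p = 6.35e-05). No library of a mark reached into the range of the other. Tal1, another stem cell factor, had 8790 to 9458 bp against 2533 to 4292 bp, while Runx1 had 6285 to 6764 bp against 5728 to 7287 bp and showed no difference (0.00 ± 0.09, limma adjusted p = 0.987).

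Of the 13 stem cell transcription factors 9 had more H3K4me3, a share near the 70.8% of all genes tested, and 0 had more H3K27ac, with a median of 0.78 against 0.56 over all genes. After quantile normalization 9 had more H3K4me3 (27.1% of all genes) and 2 more H3K27ac (28.4%). Of the 7 erythroid markers 3 had H3K4me3 only at their ends (10.4% of all genes), 0 had both marks (42.9% of all) and 4 had a mark in some of its libraries. All 6 tested in limma had more H3K4me3, against 70.8% of all genes. After quantile normalization 3 did, against 27.1%. Hba-a1 and Hba-a2, the near-identical alpha globin genes, had 0 bp of H3K27ac in every library, as did Slc4a1, the anion exchanger of red cells. The summed length over the 7 erythroid markers was 6.08 to 22.0 kb for H3K4me3 and 0 to 2.84 kb for H3K27ac, and 4 of the 7 had no H3K27ac in any library. By label the summed H3K4me3 was 6.08 to 12.5 kb in WT and 15.3 to 22.0 kb in Tg. The summed H3K27ac was 0 kb in WT and 0.386 to 2.84 kb in Tg. Over the 6 megakaryocyte markers the sums were 14.1 to 23.5 kb and 3.55 to 7.03 kb. Among them Itga2b, the platelet integrin subunit, had 5285, 3185, 3872 and 4659 bp of H3K4me3 against 0, 277, 358 and 1103 bp of H3K27ac, while Gp1ba, a platelet receptor, had 8213 to 10945 bp against 2657 to 4778 bp, and Gp9 1051 to 2157 bp against 377 to 1654 bp.

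The Hoxa and Hoxb clusters carried long H3K4me3. At their ends 6 of the 21 genes had H3K4me3 only (10.4% of all genes), 2 had both marks (42.9% of all) and 1 had neither (35.2% of all). The other 12 had a mark in some of its libraries. The summed length was 70.1 to 129 kb of H3K4me3 and 13.6 to 33.4 kb of H3K27ac, with neighbours sharing their windows. Over the 18 genes of the Hoxc and Hoxd clusters it was 9.32 to 18.2 kb and 0 to 0.526 kb. Hoxa9, the leading self-renewal gene of the cluster (chromosome 6, 52223097 to 52227370), had 15971, 13978, 9737 and 15084 bp of H3K4me3 and 333, 780, 4697 and 2234 bp of H3K27ac (log2 2.82 ± 0.51, limma adjusted p = 0.00113). Hoxa11 had 4193, 3536, 1610 and 4041 bp against 0 bp in every H3K27ac library.

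Among genes with both marks in the window in all 8 libraries, the largest differences towards H3K4me3, passing over near neighbours, were at Hoxa9, Slc2a4, Pak6, Ptch1, Ppfia3, Btn1a1, Gm46725 and Ndufa4l2. Slc2a4, the insulin-responsive glucose transporter, had 3077 to 4721 bp of H3K4me3 and 43 to 231 bp of H3K27ac. Ptch1, the Hedgehog receptor, had 6654 to 6951 bp against 289, 293, 370 and 1932 bp. Pak6, a kinase, had 4287 to 5942 bp against 280 to 363 bp (log2 2.77 ± 0.10, limma adjusted p = 6.82e-08). The window of Gm46725 overlaps that of the Polycomb gene Bmi1, which had 8379 to 9045 bp of H3K4me3 and 2438 to 2648 bp of H3K27ac. The other 3 differed by 2.54 to 2.65 on the log2 scale.

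Some genes of myeloid cells and inflammation had more H3K27ac. Of the 5 monocyte and macrophage markers 2 had more H3K4me3 and 0 more H3K27ac, and of 21 interferon response genes 9 and 1, against 70.8% and 5.54% of all genes. Cebpa and Gfi1, factors of granulocyte development, had more H3K4me3, by 0.73 and 0.68. Clec4d, a fungal receptor of neutrophils and macrophages (chromosome 6, 123262107 to 123275268), had 9334, 10407, 8941 and 6146 bp of H3K27ac and 2215, 960, 1625 and 914 bp of H3K4me3 (log2 -2.29 ± 0.24, limma adjusted p = 4.43e-05). Cxcl1, a chemokine that draws neutrophils, had 4025, 3877, 3862 and 2881 bp against 990, 605, 122 and 406 bp (log2 -2.07 ± 0.24, limma adjusted p = 9.41e-05). Acod1 had 9365, 9144, 6822 and 5826 bp against 1834, 1748, 1951 and 833 bp. At none of the 3 did the marks overlap, and the within-label differences lay between -1.79 and -2.38 in libraries labelled WT and between -1.91 and -2.35 in those labelled Tg.

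Spi1, the master regulator of myeloid fate (chromosome 2, 91082374 to 91115759), had 14653, 13596, 11955 and 12148 bp of H3K27ac and 9461, 8236, 9813 and 7761 bp of H3K4me3 (log2 -0.55 ± 0.10, limma adjusted p = 0.00150). Near its ends the percentile of its strongest H3K27ac peak was 95.6 to 98.3, and that of H3K4me3 63.8 to 68.7. Gata2 had percentiles of 55.1 to 71.5 for H3K4me3 and no H3K27ac peak near its ends. Dusp1, an immediate early phosphatase, had 9827 to 10779 bp of H3K27ac and 4354 to 5309 bp of H3K4me3 (log2 -1.04, limma adjusted p = 6.38e-06), and Klf2 and Klf6 were also called for H3K27ac. Of the 20 immediate early genes 3 were thus called for more H3K27ac, against 5.54% of all genes, and 10 for more H3K4me3, against 70.8%, Klf4 and Myc among them with 1.90 and 1.31.

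Of the 8 mature granulocyte markers 3 had more H3K27ac and 0 more H3K4me3 (median -0.65 against 0.56 over all genes, of which 5.54% and 70.8% were called): S100a8, S100a9 and Ngp, proteins of neutrophil cytoplasm and granules. S100a9 had 18462, 19084, 10233 and 8245 bp of H3K27ac and 5127, 4559, 11251 and 5261 bp of H3K4me3 (log2 -1.04, limma adjusted p = 0.0221). The marks overlapped there and at S100a8, and did not at Ngp. The libraries labelled WT carried most of it: within labels the S100a9 difference was -1.85 for WT and -0.24 for Tg, and that of S100a8 was -1.40 and -0.15. The summed H3K27ac over the 8 markers was 97.4 to 102 kb in the libraries labelled WT and 43.0 to 48.6 kb in those labelled Tg, against 43.5 to 74.7 kb of H3K4me3. How the share of granulocytic cells in each library bears on these values was not tested, and fewer cells of a type cannot be told apart from less of a mark per cell. S100a8 and S100a9 are neighbours.

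Mpo, the peroxidase of granulocyte progenitors (chromosome 11, 87793784 to 87804412), ran the other way between labels. Its H3K4me3 was even, at 11115, 9956, 9763 and 10767 bp, while its H3K27ac was 4698 and 3032 bp in the libraries labelled WT and 10152 and 11034 bp in those labelled Tg. The pooled log2 difference was 0.66 ± 0.35 (limma adjusted p = 0.118), with 1.36 in the libraries labelled WT and -0.04 in those labelled Tg. The marks overlapped.

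Markers of other cells were uneven. Cd3e, Cd8a and Ncr1, of T and NK cells, had 0 bp of both marks within 10 kb in every library. Pax5, the B cell factor, had 1912 to 6031 bp of H3K4me3 and no H3K27ac, and Cd4 and Eomes had 1953 to 2250 and 4082 to 4653 bp of H3K4me3 and no H3K27ac. Cd79a, of the B cell receptor, had both marks, with 5725 to 7730 bp of H3K4me3 and 1692 to 4111 bp of H3K27ac. Cd3d and Cd3g, neighbouring T cell receptor genes, had 1827 to 2648 and 3418 to 4378 bp of H3K27ac and 1280 to 2116 and 3307 to 3943 bp of H3K4me3. Of the 7 stroma and endothelium markers 4 had H3K4me3 only at their ends (57.1%, against 10.4% of all genes), 0 had both marks and 1 had neither. The 4 were Cxcl12, Col1a1, Pdgfrb and Col1a2. Within 10 kb 3 of the 7 had no H3K27ac in any library, while Pecam1, of endothelium and platelets, had 1334 to 3340 bp. The part of other cells in these values was not tested.

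**Figure D5:**
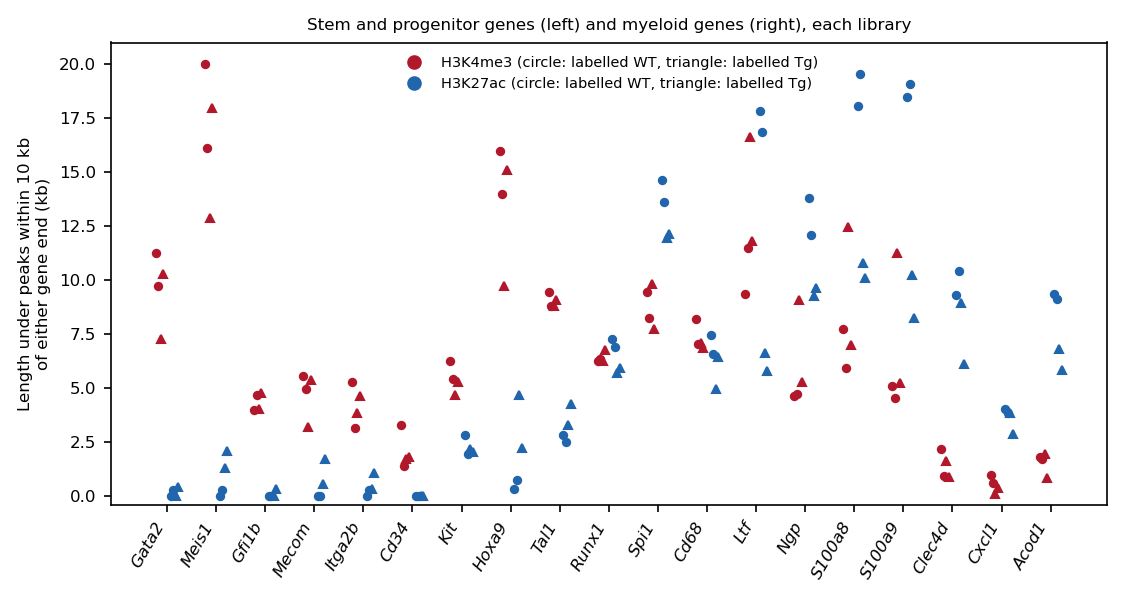
Length under peaks within 10 kb of either gene end (vertical axis, kb) in each library for stem and progenitor genes (left) and myeloid genes (right), red for H3K4me3 and blue for H3K27ac, circles for libraries labelled WT and triangles for those labelled Tg; the genes were picked after their values were seen. Gata2, Gfi1b and Cd34 have H3K4me3 with H3K27ac at or near 0, and Clec4d, Cxcl1 and Acod1 have more H3K27ac than H3K4me3 in every library.

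The remaining large differences towards H3K27ac were at Gm46963, Nek6, Jph3, Irgc1, Gm5150 and Nemp2. Gm46963 had 14381, 14546, 11851 and 9213 bp of H3K27ac and 1917, 154, 2101 and 485 bp of H3K4me3 (log2 -3.17 ± 0.43, limma adjusted p = 0.000230). Nek6, a mitotic kinase, had 5229 to 7203 bp against 395 to 793 bp, and its H3K4me3 and H3K27ac both reached its ends. Jph3 and Irgc1 had 6488 to 10542 and 4742 to 11237 bp of H3K27ac, and their H3K4me3 was 1016 to 2653 and 1009 to 2218 bp.

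Away from gene ends, 3106 constant H3K4me3 regions met no H3K27ac peak in any library and 1972 constant H3K27ac regions no H3K4me3 peak. The strongest of the latter lay 71243 bp from Inhba, which encodes an activin subunit (chromosome 13, 15928565 to 15933013, 4449 bp wide), with a mean percentile of 91.1 in the H3K27ac lists. Constant H3K4me1 covered 95.1% of it. Others lay in Prkch, a protein kinase C (chromosome 12, 73714749 to 73717019), in Cd84, a receptor of the SLAM family (chromosome 1, 171848787 to 171852189), 19501 bp from Dusp1 (chromosome 17, 26483956 to 26486090) and 4507 bp from Trim33 (chromosome 3, 103363277 to 103365777). H3K4me1 covered 52.8% to 100% of these 4. The region by Dusp1 lies outside that gene's 10 kb window.

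The strongest H3K4me3 regions of this kind lay in Tlcd3a (chromosome 11, 76201613 to 76202921), in Spdya, an activator of cyclin-dependent kinases (chromosome 17, 71551484 to 71553178), 46347 bp from Vrk1 (chromosome 12, 105962318 to 105963792), in Kctd1 (3195 bp wide, 86037 bp from the nearest gene end), and in Cbfa2t3, a corepressor of stem cell and erythroid factors (chromosome 8, 122676829 to 122679434). Their mean percentiles were 77.9 to 81.3, below the 84.3 to 91.1 of the H3K27ac regions, though percentiles of lists of different length show no change between them. H3K4me1 covered 100% of the regions in Spdya and Cbfa2t3 and 0% of the one near Vrk1. Only protein-coding genes were annotated here, and starts inside a gene count as away from its ends.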

How the data were processed

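ChIP-seq peak lists of 4 H3K4me3 and 4 H3K27ac libraries were analysed, with 4 H3K4me1 lists for annotation. Per the submitters' processing notes, the authors used Bowtie2, SAMtools and MACS2 with build mm10, beside FastQC, Trim Galore and deepTools; versions, settings and any control library are not given in the sources used here. The authors deposited 1 list per library with a −log10 q-value per peak, whose lowest values (1.31 to 1.40) show the calling threshold. Those values depend on depth and were used only as ranks within a list.

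Peaks of a mark were merged where they overlapped or touched. Genes were the 21883 protein-coding genes of unique symbol in a RefSeq table of GRCm38.p6, which gives no strand, so windows of 1 kb around either gene end were used; RefSeq promoters gave strand and start for 17491 of them. Coordinates are 1-based. Marks were compared over libraries by two-sided exact permutation tests of 4 against 4 (70 arrangements), adjusted by Benjamini-Hochberg over 11 measures (scipy 1.17.1). Length under peaks within 10 kb was fitted per gene with limma 3.58.1 on log2(bp + 500), without scaling, for genes with a peak in at least 4 of 8 libraries, and adjusted over all 15306 genes at 0.05. The interval code and the limma step were tested on simulated data.

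The libraries and gene lists were chosen with earlier results of these data known. By rule the text names the 10 strongest genes of each class with a single mark, the 6 strongest with both, the 8 largest limma differences in each direction where each of the 8 libraries had a peak in the gene's window, at most 4 members per list and class, the 5 strongest distal regions of each mark, and Kit, Phf6, Mpo, Spi1 and Gata2; other genes were chosen after their values were seen. Strength is the smallest percentile over the libraries. Alternatives were stricter peaks, the 30000 highest peaks, joined peaks, other windows, thresholds of presence, scalings and pseudocounts, each genotype label alone, and each library left out, where limma needed a peak in at least 3 of 7 libraries.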

Additional observations from a re-analysis of the deposited data

Results flagged for a closer look

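In 6 of 62 groups of 4 libraries, 1 library lay far from the other 3, where chance gives about 1 in 20. For the share of the highest 10% of peaks near a gene end, H3K4me3 WT replicate 2 had 91.7% (91.734), against 91.561% to 91.581% in the others, a gap far smaller than the difference from H3K27ac. For length under peaks within 10 kb, H3K4me3 WT replicate 1 had 6048 bp at Gm46725 (others 5342 to 5408), and H3K4me3 Tg replicate 1 had 2653 bp at Jph3 (1016 to 1255) and 2218 bp at Irgc1 (1009 to 1194). H3K27ac Tg replicate 2 had 1932 bp at Ptch1 (289 to 370) and 2881 bp at Cxcl1 (3862 to 4025). None of these 5 values reached the range of the other mark at that gene.

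Median peak width of H3K4me3 minus H3K27ac was -144.5 bp in the libraries labelled WT and 115 bp in those labelled Tg. In the first both H3K4me3 libraries were narrower than both H3K27ac libraries, and in the second both were wider. The difference between labels was not tested, and the names inside the H3K4me3 lists carry the opposite genotype.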

How the results depend on the processing

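Depth is unknown, peak lists end at a threshold, and an absent peak is not an absent mark. Differences below are H3K4me3 minus H3K27ac. Without any 1 library the ranges were -966 to 2657 for peak number, -51.3 to 41.4 bp for median peak width, 459 to 712 bp for the 95th percentile of width, 1.97 to 7.71 Mb for covered length (p = 0.0286 by the exact permutation test only without H3K27ac WT replicate 1), 5.31 to 7.66 points for the share near gene ends, 11.4 to 13.4 points for that of the highest 10%, -4143 to -3107 bp for distance, 3036 to 3285 genes with a peak near an end, -10.1 to -8.14 points for H3K4me1, -0.0290 to -0.0263 for the CG ratio and 0.245 to 0.314 for the Jaccard index. The first 2 changed sign. The other measures called in the report kept their direction, but without H3K4me3 WT replicate 2, Tg replicate 1 or Tg replicate 2 each missed the adjusted threshold (0.0524 for genes with a peak near an end), with fewer of the 11 measures at the smallest p of 0.0286, which both 4 against 3 and 4 against 4 libraries allow. The 95th percentile of width missed it without H3K4me3 WT replicate 1 too.

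Constant H3K4me3 regions then had a median width of 1266 to 1453.5 bp, 46.6% to 48.7% near gene ends and 54.8% to 59.4% of their length under constant H3K27ac. Constant H3K27ac regions had 1502 to 1697 bp and 40.4% to 44.2% near gene ends. Genes with H3K27ac only numbered 35 to 59, the most without H3K27ac Tg replicate 1.

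In the libraries labelled WT alone the differences were 177 bp (95th percentile), -0.226 Mb (reversed), 7.25 and 12.3 points near gene ends, -4225 bp (-4224.5), 3239.5 genes, -11.7 points of H3K4me1, -0.0291 and 0.323. In those labelled Tg they were -211 peaks and 115 bp of median width (both reversed), 996.5 bp, 6.13 and 12.6 points, -3171.5 bp, 3106 genes, -6.87 points, -0.0264 and 0.285. With 2 against 2 libraries no p can go below 0.333. Median widths of constant regions were 1095 and 1357 bp (WT; H3K4me3 first here and below) and 1173 and 1108 bp (Tg), and the shares near gene ends 43.8% and 36.3% (WT) and 44.3% and 38.4% (Tg). In WT 58.8% of constant H3K27ac lay under H3K4me3, and in Tg 53.3% of constant H3K4me3 under H3K27ac. Genes with H3K27ac only numbered 123 and 68, and genes with more H3K27ac in limma 425 in Tg.

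With −log10 q of at least 5 the difference in median width was 59.8 bp (59.75, reversed), H3K4me3 regions had a median of 1636 bp, and 54.3% and 49.3% lay near gene ends. With the 30000 highest peaks it was 65.3 bp (65.25, reversed), that of the 95th percentile 647 bp (exact permutation p = 0.0571), and H3K4me3 regions had 1600.0 bp and 53.5%; peak number then has no value. With joined peaks the 95th percentile differed by 378 bp, and regions had 1575 and 1832.5 bp and, for H3K4me3, 49.97% near gene ends. With presence in 3 of 4 libraries they had 1235 and 1486 bp, 43.8% and 37.8%, and 108 genes had H3K27ac only. With 50% of a region required, 12736 H3K27ac regions remained constant. Windows of 2.5 kb gave 53.7%, 48.8% and 55 genes, and annotated starts alone 41.2%, 37.7% and 12 genes.

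Replicate numbers showed no pairing of the libraries. Pairs were formed by label and number, though the names in the H3K4me3 lists carry the opposite genotype. Deviations of each gene from the mean of its mark correlated at -0.28 to 0.066 between same-numbered libraries. The best other H3K27ac library correlated at 0.075 to 0.29. With the replicate block the differences stayed 587 bp, 6.69 and 12.5 points, -3698 bp, 3173 genes, -9.26 points and -0.0277, each with an exact p of 0.125, the smallest 4 pairs allow, and limma called 10570 and 800 genes.

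Limma called 4154 and 4353 genes after quantile normalization, 5835 and 3137 with equal total length, and 407 with more H3K27ac in 2.5 kb windows. Equal total length put the median of all genes at 0.12 and Phf6 at -0.14, against -0.22 with quantiles. Mpo was -0.044 in Tg. For the 21 named genes, 432 values kept direction and side of the threshold, 3 reversed (those above), 2 fell short of the threshold and 2 newly passed it.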
